A study of Homo sapiens with 6 samples.

Results

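The genes described here are 43 genes of the lysosome, chosen by name from the 56303 gene entries of the table: 10 cathepsins, 14 other hydrolases or their cofactors, 5 membrane proteins and 14 subunits of the vacuolar proton pump (V-ATPase). All 43 were found under these names, and all passed the filter on low counts. They were measured by RNA sequencing in AGS, an established human gastric cancer line grown in DMEM/F12 with serum. The study compared 3 libraries of AGS cells given a small interfering RNA (siRNA) against the splicing factor gene SRSF2 (siSRSF2) with 3 libraries of AGS cells labelled wild-type (WT), and the labels also name the source as gastric cancer tissue. No control siRNA is named for the WT cells, and no label ties the replicates to separate cultures, so p-values cover only the spread between these libraries. The dose of the siRNA and the time after transfection are not stated in the labels.

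Lysosomes break down proteins, glycans, lipids and nucleic acids that arrive by endocytosis and autophagy. Their hydrolases work at low pH, which the V-ATPase maintains: its cytosolic V1 part splits ATP and turns a rotor that drives protons through the membrane-embedded V0 part. Many lysosomal genes carry an E-box-like element near their start, bound by the MiT/TFE factors TFEB, TFE3 and MITF, which enter the nucleus when the kinase complex mTORC1 at the lysosomal surface is inactive.

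SRSF2 itself was lower in siSRSF2 cells, at 21.6, 21.8 and 24.9 CPM against 44.5, 46.4 and 44.1 CPM in WT (CPM, read counts scaled to the same library size after TMM normalization). The SRSF2 entry shares 36.7% of its exon bases with MFSD11 on the opposite strand, which was also lower (log2 fold change -0.41). Libraries held 47518943 to 50021152 counts in WT and 26610937 to 36651623 in siSRSF2, so low levels were measured less precisely in siSRSF2. Levels written with ± are means and SDs of the 3 libraries of a group. Across 23689 genes tested, 59.1% passed an edgeR adjusted p of 0.05 (hereafter called), 30.1% as higher and 29.0% as lower in siSRSF2 (these shares are the background for the counts below). The 2 groups of libraries did not overlap in 63.8%. Of 8 epithelial markers, 3 rose and 2 fell, and their summed level was 5057 to 5489.6 CPM in WT and 4057 to 4345 CPM in siSRSF2. The keratins KRT8 (3236 to 2776 CPM) and KRT7 (929 to 322 CPM) fell, and ELF3 (8.37 to 51.4 CPM), CLDN7 (1.70 to 10.0 CPM) and CLDN4 (1.45 to 4.99 CPM) rose. KRT18 (1099 and 1058 CPM), EPCAM (5.00 and 5.80 CPM) and KRT19 (3.21 and 3.18 CPM) were not called. The 11 leukocyte and phagocyte markers examined summed to between 5.08 and 6.11 CPM in WT and between 3.81 and 4.13 CPM in siSRSF2. Most of that was CSF1R (4.75 and 2.97 CPM), while TYROBP had no count in any library and PTPRC stood at 0.0706 and 0.169 CPM. The 10 fibroblast and endothelial markers summed to 25.7 to 26.3 CPM in WT and 52.4 to 59.3 CPM in siSRSF2, 5 of 8 tested being higher and 2 lower. COL1A1 gave most of that sum (from 16.0 ± 0.249 to 35.6 ± 1.79 CPM), and DCN rose most by fold (5.03-fold, from 1.01 ± 0.0359 to 5.08 ± 0.360 CPM). The 2 lower were the endothelial markers PECAM1 (from 0.831 to 0.206 CPM) and CDH5 (from 2.23 to 0.955 CPM). The part of these markers in the results below was not tested. In bulk RNA, fewer cells of a type and less RNA per cell cannot be told apart.

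The element recognised by MiT/TFE factors was looked for in the promoters of these genes, because it is the sequence feature that lysosomal genes are best known to share. RefSeq promoter windows (GRCh38.p14, 250 bases before to 50 after 1 annotated start per gene) were matched by symbol for 29 of the 43 genes. The palindrome TCACGTGA was present in 6 of 29 of them (20.7%), against 1.04% of all 27305 promoters and 1.76% of the 11346 promoters of tested genes. Its core, CACGTG, which lies within every TCACGTGA, was present in 11 of 29 (37.9%), against 7.43% of all promoters and 9.84% of those of tested genes. Both words read the same on either strand. The 6 promoters that hold TCACGTGA are shown from 100 bases before to 10 bases after the start, on the gene's own strand from 5′ to 3′, with each TCACGTGA in capitals. They lie at chr17:80101481-80101590, plus strand (GAA), chr20:45891235-45891344, plus strand (CTSA), chr9:114587669-114587778, plus strand (ATP6V1G1), chr16:67481148-67481257, minus strand (ATP6V0D1), chr19:7522524-7522633, plus strand (MCOLN1) and chr13:113297139-113297248, plus strand (LAMP1).
GAA: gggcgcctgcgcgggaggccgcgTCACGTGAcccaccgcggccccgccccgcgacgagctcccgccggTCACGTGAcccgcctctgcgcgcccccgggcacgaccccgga
CTSA: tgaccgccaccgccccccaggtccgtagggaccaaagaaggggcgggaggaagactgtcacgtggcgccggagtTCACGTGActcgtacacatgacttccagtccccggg
ATP6V1G1: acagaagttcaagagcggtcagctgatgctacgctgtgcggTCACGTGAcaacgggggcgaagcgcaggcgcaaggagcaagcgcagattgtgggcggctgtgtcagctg
ATP6V0D1: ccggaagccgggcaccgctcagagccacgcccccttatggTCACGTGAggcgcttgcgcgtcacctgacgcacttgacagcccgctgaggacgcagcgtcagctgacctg
MCOLN1: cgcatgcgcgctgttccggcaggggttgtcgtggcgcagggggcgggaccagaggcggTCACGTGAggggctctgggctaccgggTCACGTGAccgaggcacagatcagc
LAMP1: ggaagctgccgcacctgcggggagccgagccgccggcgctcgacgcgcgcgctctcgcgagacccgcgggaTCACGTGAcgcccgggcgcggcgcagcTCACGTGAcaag
In GAA the word begins 77 and 32 bases before the start, in MCOLN1 42 and 15 bases before it, and in LAMP1 29 and 2 bases before it, so these 3 promoters hold 2 copies each. The single copies begin 26 bases before the start in CTSA, 59 in ATP6V1G1 and 60 in ATP6V0D1. A further 5 promoters held only the core, those of CTSF, CTSD, NEU1, ATP6V0B and CD63. A match describes these letters and does not show binding.

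Possession of the word went with no single direction of change. Of the 6 genes shown, GAA and CTSA were higher in siSRSF2, ATP6V1G1 and ATP6V0D1 were lower, and MCOLN1 and LAMP1 were not called. Promoters were matched for 9 of 15 higher genes, 12 of 15 lower genes and 8 of 13 genes not called, so the rest could not be counted. Counted by call, TCACGTGA was in 2 of 9 promoters of higher genes, 2 of 12 of lower genes and 2 of 8 of genes not called. The core was in 5 of 9, 3 of 12 and 3 of 8 respectively. Counts of this size were described and not tested.

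Over all 43 genes, 15 were higher in siSRSF2, 15 were lower and 13 were not called. These shares (34.9% in each direction) lay near the 30.1% and 29.0% of all tested genes, and near the 32.6% higher and 37.4% lower among genes with a mean of at least 1 CPM. The median log2 fold change was 0.031, beside 0.020 for all genes tested. The groups of libraries did not overlap in 32 of 43 genes, beside 63.8% of all genes tested. Among genes with a mean of at least 1 CPM, they did not overlap in 12526 of 17149. The balance hid opposite directions by role. Of the 14 V-ATPase subunit genes, 12 fell, beside 37.4% of genes of at least 1 CPM, and 1 rose, with a median of -0.48. Of the 24 cathepsins and other hydrolases, 13 rose, beside 32.6%, and 3 fell, with a median of 0.50. The difference between these groups was described and not tested.

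**Figure D1:**
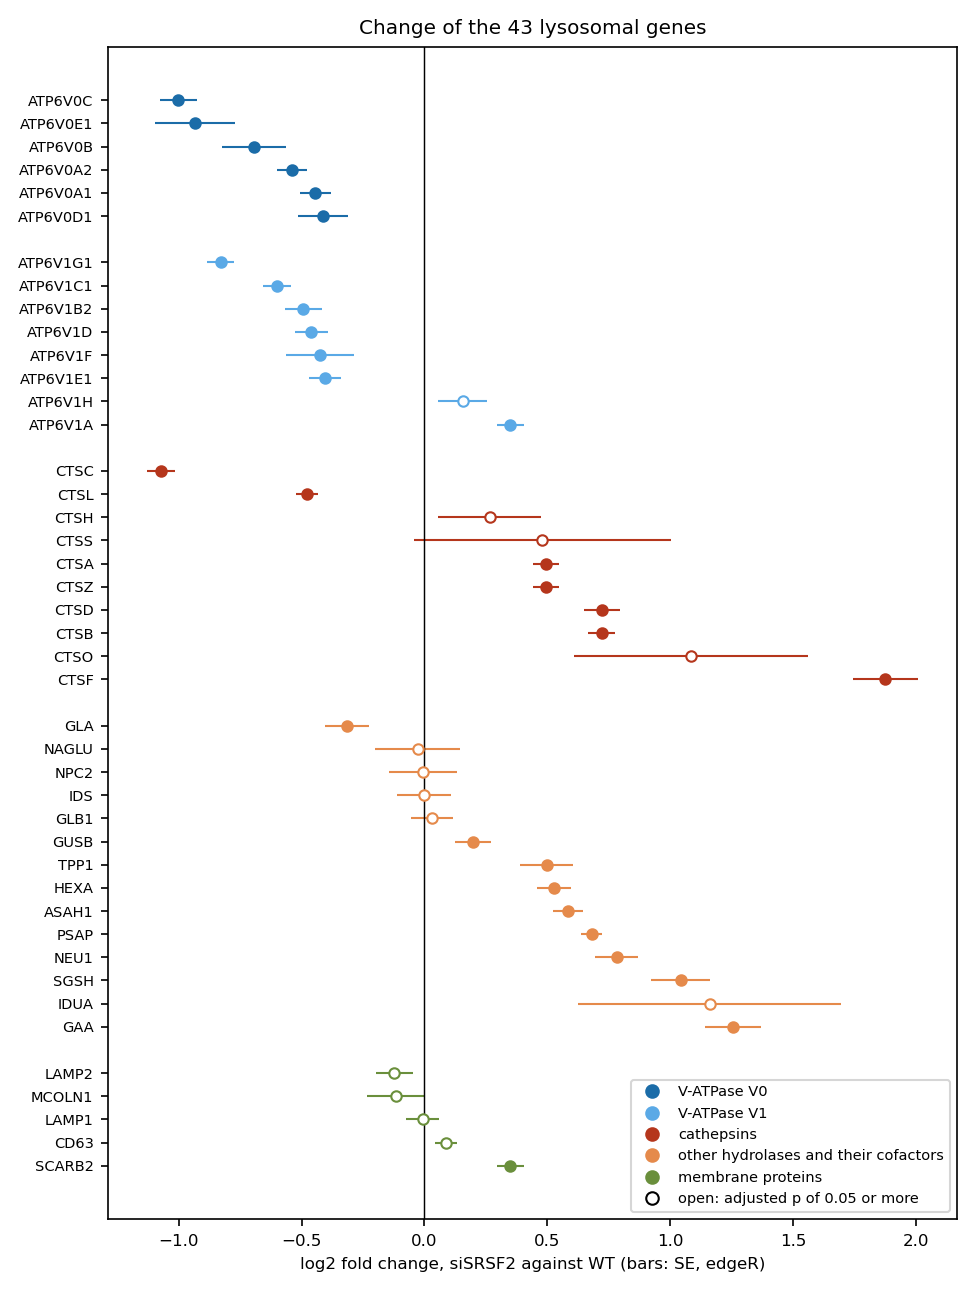
Log2 fold change (horizontal axis, siSRSF2 against WT) of each of the 43 genes, grouped by role, with bars for the SE. Filled points were called and open points were not. All 6 V0 subunits shown lie left of 0, and most hydrolases lie right of it.

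In the V0 part, all 6 of the chosen genes fell, and in each of them every siSRSF2 library lay below every WT library. The median log2 fold change of these 6 was -0.62 (range -1.001 to -0.41). Of other V0 subunit genes tested, TCIRG1 rose, as described below, and ATP6V0A4 and ATP6V0E2 were not called. ATP6V0C (chromosome 16, 2513870 to 2520218, plus strand, 4 merged exons; positions are the table's own, on GRCh38) encodes the proteolipid that makes up most of the rotating ring. Its levels were 32.9, 34.7 and 38.7 CPM in the WT libraries and 15.9, 19.1 and 18.0 CPM in the siSRSF2 libraries. This was a 2.001-fold fall (log2 change -1.001 ± 0.0752 SE, adjusted p = 1.12e-11 in edgeR). The ATP6V0C entry shares 57.5% of its exon bases with RP11-20I23.1 on the same strand. The 2 entries had totals of 6779 and 6777 counts over the 6 libraries and similar log2 changes (-1.001 and -0.97), so they may rest on the same reads. ATP6V0B, another proteolipid of the ring, was at 6.80, 6.83 and 8.91 CPM in the WT libraries and 4.38, 4.33 and 5.22 CPM in the siSRSF2 libraries, with no overlap. It fell 1.62-fold (log2 change -0.69 ± 0.131 SE, adjusted p = 5.13e-05 in edgeR).

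ATP6V0E1, a small membrane subunit, was at 32.2, 33.9 and 27.8 CPM in the WT libraries and 16.5, 12.8 and 19.97 CPM in the siSRSF2 libraries. The siSRSF2 libraries varied among themselves, with replicate 2 lowest and replicate 3 highest, yet all were below WT (log2 change -0.93 ± 0.162 SE, adjusted p = 0.00218 in edgeR). ATP6V0A1 and ATP6V0A2 encode alternative forms of the large subunit that carries the proton path. ATP6V0A1 was at 38.8, 34.6 and 38.4 CPM in the WT libraries and 25.8, 28.4 and 27.8 CPM in the siSRSF2 libraries, and ATP6V0A2 was at 33.4, 35.4 and 36.9 CPM in the WT libraries and 24.1, 24.8 and 23.8 CPM in the siSRSF2 libraries. They fell by similar amounts, 1.36-fold (log2 change -0.44 ± 0.0639 SE, adjusted p = 1.12e-06 in edgeR) and 1.45-fold (log2 change -0.54 ± 0.0624 SE, adjusted p = 3.04e-08 in edgeR). The count ratio of ATP6V0A1 to ATP6V0A2 was 1.06 ± 0.0946 in WT and 1.13 ± 0.0507 in siSRSF2 (SD, n = 3 each), a difference smaller than the spread in WT. ATP6V0D1, which joins the ring to the central stalk, fell from 18.1 ± 0.817 to 13.6 ± 2.56 CPM (SD, n = 3; log2 change -0.41 ± 0.1001 SE, adjusted p = 0.00126 in edgeR). Its siSRSF2 libraries spread widely, from 10.9 to 16.0 CPM, and in a test against 1.2-fold the gene was not called (adjusted p = 0.0509).

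In the V1 part, 6 of the 8 chosen genes fell, 1 rose and 1 was not called (median log2 change -0.44). Under library totals, 5 were lower and 2 higher. The largest fall was in ATP6V1G1 (chromosome 9, 114587746 to 114598373, plus strand, 3 merged exons), a subunit of the peripheral stalks whose promoter is shown above. It was at 73.5, 70.4 and 75.3 CPM in the WT libraries and 43.6, 41.1 and 38.9 CPM in the siSRSF2 libraries. All siSRSF2 values were between 38.9 and 43.6 CPM, well under the lowest WT library (log2 change -0.83 ± 0.0546 SE, adjusted p = 6.12e-13 in edgeR). ATP6V1C1, which connects the stalks to V0, fell from 50.9 ± 0.714 to 33.6 ± 2.17 CPM (log2 change -0.60 ± 0.0577 SE, adjusted p = 1.01e-09 in edgeR). ATP6V1B2, the non-catalytic nucleotide-binding subunit, fell from 22.6 ± 1.79 to 16.0 ± 0.278 CPM (log2 change -0.49 ± 0.0750 SE, adjusted p = 2.64e-06 in edgeR). ATP6V1D, of the central rotor stalk, fell from 33.0 ± 2.57 to 24.0 ± 0.780 CPM (log2 change -0.46 ± 0.0668 SE, adjusted p = 1.24e-06 in edgeR). ATP6V1E1, of the peripheral stalks, had a log2 change of -0.41. ATP6V1D shares 6.33% of its exon bases with EIF2S1 on the opposite strand, an abundant gene that also fell (log2 change -1.05). Whether reads were counted by strand is not known here.

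ATP6V1A, the catalytic subunit, went the other way. It was at 38.9, 38.2 and 36.9 CPM in the WT libraries and 46.4, 49.7 and 48.8 CPM in the siSRSF2 libraries, with every siSRSF2 library above every WT library. The rise was 1.27-fold (log2 change 0.35 ± 0.0550 SE, adjusted p = 4.54e-06 in edgeR). Per kb of merged exons, ATP6V1A rose from 7.41 ± 0.198 to 9.42 ± 0.335 CPM while ATP6V1B2, with which it forms the catalytic ring, fell from 2.89 ± 0.229 to 2.05 ± 0.0355 CPM. ATP6V1H, a regulatory subunit, was not called (log2 change 0.15 ± 0.0991 SE, adjusted p = 0.188 in edgeR), but scaling to library totals called it higher (0.28 on the log2 scale, adjusted p = 0.0153).

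ATP6V1F, a small rotor subunit (chromosome 7, 128862826 to 128865844, plus strand, 3 merged exons), was the most abundant of the 43 genes per kb in both groups, at 286 ± 20.3 CPM per kb in WT and 213 ± 36.4 in siSRSF2. Its levels were 218, 215 and 244 CPM in the WT libraries and 201, 155 and 149 CPM in the siSRSF2 libraries. The groups did not overlap, but siSRSF2 replicate 1 was close to WT, and the call was marginal (log2 change -0.43 ± 0.137 SE, adjusted p = 0.0481 in edgeR). It was lost in 9 of 16 alternatives, namely library totals (adjusted p = 0.0677), a mean of at least 1 CPM (0.0544), the test against 1.2-fold (0.146), those without WT replicate 1, 2 or 3 or siSRSF2 replicate 2 or 3 (adjusted p between 0.0544 and 0.104) and with the replicate number as a block (adjusted p = 0.0752). ATP6V1F shares 23.7% of its exon bases with KCP on the opposite strand. The 2 entries had nearly equal totals over the 6 libraries, 48371 and 47501 counts, and nearly equal log2 fold changes (-0.43 and -0.43), so these too may rest on the same reads.

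**Figure D2:**
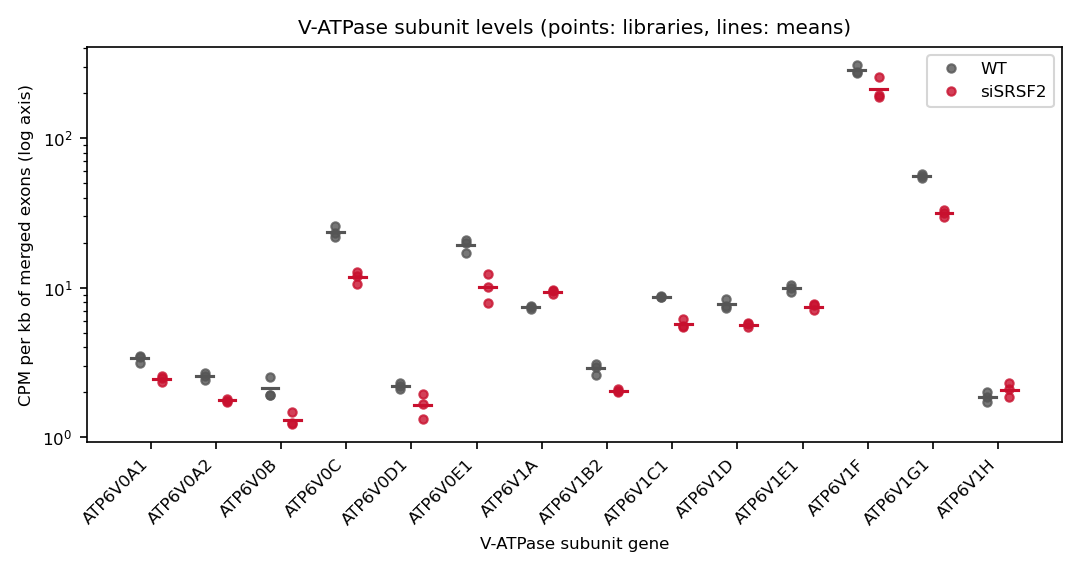
Level of each V-ATPase subunit gene as CPM per kb of merged exons (vertical log axis), with 1 point per library and a line at the group mean, WT in grey and siSRSF2 in red. ATP6V1A and ATP6V1H are the only subunits of the 14 with a higher mean in siSRSF2, and ATP6V1F lies above the rest in both groups.

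Summed over the 14 genes, V-ATPase transcripts came to 637, 635 and 677 CPM in WT and 498, 454 and 458 CPM in siSRSF2. The groups did not overlap, and the siSRSF2 mean was 27.6% lower. ATP6V1F made up much of this sum. Without it the sum was 424 ± 7.63 CPM in WT and 302 ± 6.48 CPM in siSRSF2 (SD, n = 3), 28.8% lower.

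In a list of 20 other subunits, accessory proteins and assembly factors of the pump, 8 of 17 tested were higher and 3 lower, beside 30.1% and 29.0% of all genes (median log2 change 0.27). Under library totals, 10 were higher and 3 lower. NCOA7, a TLDc-domain protein that interacts with V1, rose from 46.1 ± 1.89 to 92.6 ± 3.61 CPM (1.01 on the log2 scale), and DMXL2, a scaffold of the complex that reassembles V1 with V0, also rose from 15.4 ± 0.779 to 31.2 ± 1.78 CPM (1.01). VMA21 and TMEM199, which assist assembly of V0 in the endoplasmic reticulum, fell from 37.0 ± 1.10 to 19.1 ± 0.466 CPM and from 17.7 ± 1.03 to 7.36 ± 0.339 CPM (log2 changes -0.95 and -1.26). Chosen after their values were seen, TCIRG1, the alternative large V0 subunit known from osteoclasts, rose from 4.79 ± 0.626 to 10.7 ± 0.601 CPM (log2 change 1.16), and ATP6V1G2, an alternative to ATP6V1G1, rose from 2.37 ± 0.507 to 5.997 ± 0.395 CPM (1.34). Per kb, ATP6V1G2 stayed far below ATP6V1G1, at 2.79 ± 0.184 against 31.6 ± 1.80 CPM in siSRSF2. TCIRG1 reached 2.44 ± 0.137 CPM per kb in siSRSF2, close to ATP6V0A1 at 2.47 ± 0.122 and above ATP6V0A2 at 1.77 ± 0.0368, whereas in WT it was at 1.09 ± 0.143 against 3.37 ± 0.212 and 2.57 ± 0.128.

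Among the cathepsins, the proteases of the lysosome, 5 of 10 rose, 2 fell and 3 were not called (median log2 change 0.49). CTSF (chromosome 11, 66563463 to 66568841, minus strand, 11 merged exons), a cysteine cathepsin, changed most of all 43 genes. It was at 2.52, 2.19 and 2.21 CPM in the WT libraries and 9.24, 8.72 and 7.50 CPM in the siSRSF2 libraries, the siSRSF2 libraries lying far above WT. This was a 3.67-fold rise (log2 change 1.87 ± 0.134 SE, adjusted p = 3.07e-12 in edgeR). Of the abundant cathepsins, CTSB was at 73.8, 76.4 and 82.3 CPM in the WT libraries and 124, 139 and 119.8 CPM in the siSRSF2 libraries. CTSB rose 1.65-fold (log2 change 0.72 ± 0.0555 SE, adjusted p = 3.72e-11 in edgeR). CTSD, the main aspartic protease, was at 19.1, 20.8 and 21.9 CPM in the WT libraries and 30.2, 36.3 and 35.0 CPM in the siSRSF2 libraries, without overlap of the groups (log2 change 0.72 ± 0.0726 SE, adjusted p = 2.42e-09 in edgeR). CTSD shares 41.7% of its exon bases with RP11-295K3.1 on the same strand, which rose by a similar amount (log2 change 0.75). CTSZ, a carboxypeptidase, rose from 48.8 ± 1.26 to 68.7 ± 3.96 CPM (log2 change 0.49), and CTSA, a serine carboxypeptidase, rose from 40.3 ± 0.431 to 56.7 ± 1.80 CPM (0.49).

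CTSC and CTSL fell. CTSC, or dipeptidyl peptidase I, which activates serine proteases of immune granules, was at 64.2, 70.7 and 63.9 CPM in the WT libraries and 32.2, 31.2 and 31.2 CPM in the siSRSF2 libraries. It fell 2.10-fold, the largest fall among the 43 genes (log2 change -1.07 ± 0.0566 SE, adjusted p = 6.27e-15 in edgeR). CTSL, a broad endopeptidase and the most abundant cathepsin per kb in both groups, was at 198, 201 and 201 CPM in the WT libraries and 150.03, 142 and 139 CPM in the siSRSF2 libraries. Its fall was 1.39-fold (log2 change -0.48 ± 0.0447 SE, adjusted p = 5.84e-10 in edgeR). The count ratio of CTSL to CTSB was 2.69, 2.63 and 2.44 in WT and 1.21, 1.02 and 1.16 in siSRSF2. Corrected for length, the ratio went from 8.12 ± 0.410 to 3.55 ± 0.307, a within-library value that no scaling between libraries can move. Summed over the 10 genes, cathepsin transcripts were 458 ± 6.54 CPM in WT and 473 ± 8.45 CPM in siSRSF2 (SD, n = 3). In that sum the falls of CTSL and CTSC were nearly as large as the rises of the others.

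CTSH, CTSO and CTSS were scarce and not called. CTSH had counts of 82, 96 and 67 in WT and 54, 69 and 87 in siSRSF2 (log2 change 0.27 ± 0.210 SE, adjusted p = 0.291 in edgeR). CTSO had counts of 12, 4 and 17 in WT and 14, 20 and 16 in siSRSF2, so all siSRSF2 levels lay above all WT levels, yet the test did not pass (log2 change 1.08 ± 0.475 SE, adjusted p = 0.0527 in edgeR). It passed with limma voom (adjusted p = 0.0281), with library totals (0.0295) and without WT replicate 3 (0.0288). CTSS, known from antigen-presenting cells, had counts of 16, 14 and 4 in WT and 10, 16 and 8 in siSRSF2 (log2 change 0.48 ± 0.522 SE, adjusted p = 0.452 in edgeR). The SEs of CTSO and CTSS were several times that of CTSB, so a change as small as that of CTSB was not detectable in them.

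The other hydrolases and cofactors mostly rose, with 8 of 14 higher and 1 lower (median log2 change 0.51). Under library totals, 9 were higher and 0 lower. Their summed level was 333, 344 and 339 CPM in WT and 492, 514 and 513 CPM in siSRSF2, without overlap. PSAP (chromosome 10, 71816298 to 71851375, minus strand, 15 merged exons) encodes the precursor of the saposins, cofactors of sphingolipid breakdown, and was at 202, 204 and 198 CPM in the WT libraries and 313, 326 and 327 CPM in the siSRSF2 libraries. It rose 1.60-fold (log2 change 0.68 ± 0.0430 SE, adjusted p = 2.61e-13 in edgeR). ASAH1, the acid ceramidase that acts with a saposin, rose from 34.9 ± 2.73 to 52.3 ± 2.04 CPM (log2 change 0.58 ± 0.0603 SE, adjusted p = 3.92e-09 in edgeR). Of the other genes of glycosphingolipid breakdown, HEXA, the alpha subunit of beta-hexosaminidase, rose from 20.9 ± 0.614 to 30.1 ± 2.33 CPM (log2 change 0.53), and GLA, alpha-galactosidase A, was the member of this group that fell, from 13.2 ± 1.21 to 10.6 ± 0.415 CPM (log2 change -0.31 ± 0.0904 SE, adjusted p = 0.00397 in edgeR). The call on GLA was lost with scaling by library totals (adjusted p = 0.0929) and against 1.2-fold (adjusted p = 0.208). HEXA overlaps 3 other entries, all of which were also called higher.

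GAA (chromosome 17, 80101556 to 80119879, plus strand, 21 merged exons), the acid alpha-glucosidase that breaks down glycogen, was at 4.41, 4.71 and 4.49 CPM in the WT libraries and 10.2, 12.4 and 9.73 CPM in the siSRSF2 libraries. The siSRSF2 libraries were all above WT, by 2.38-fold on average (log2 change 1.25 ± 0.114 SE, adjusted p = 3.37e-10 in edgeR). NEU1, the lysosomal sialidase, was at 8.14, 9.15 and 8.24 CPM in the WT libraries and 14.9, 14.0 and 15.0 CPM in the siSRSF2 libraries, again without overlap (log2 change 0.78 ± 0.0890 SE, adjusted p = 2.26e-08 in edgeR). NEU1 forms a complex with CTSA and with the beta-galactosidase GLB1. NEU1 and CTSA rose, but GLB1 was not called, at 12.3 ± 0.165 and 12.6 ± 1.05 CPM (log2 change 0.031 ± 0.0867 SE, adjusted p = 0.787 in edgeR).

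SGSH, IDS, NAGLU, IDUA and GUSB act on heparan sulfate, and of these SGSH and GUSB were called. SGSH, the N-sulfoglucosamine sulfohydrolase, was at 3.88, 4.79 and 4.85 CPM in the WT libraries and 9.17, 10.1 and 8.54 CPM in the siSRSF2 libraries, a 2.06-fold rise (log2 change 1.04 ± 0.119 SE, adjusted p = 2.20e-08 in edgeR). It overlaps CARD14 on the opposite strand in 2.28% of its exon bases, and CARD14 rose as well (log2 change 1.60). IDS, the iduronate sulfatase, and NAGLU, the N-acetylglucosaminidase, had log2 fold changes of -0.0019 (SE 0.109) and -0.028 (SE 0.173), and neither was called. IDUA, the iduronidase, had counts of only 4, 17 and 6 in WT and 14, 11 and 18 in siSRSF2, and was not called (log2 change 1.16 ± 0.534 SE, adjusted p = 0.0650 in edgeR). It was called higher with limma voom (adjusted p = 0.0365), with library totals (0.0396), without WT replicate 2 (0.0105) and without siSRSF2 replicate 2 (0.0494). GUSB, the beta-glucuronidase, rose from 16.9 ± 1.01 to 19.4 ± 0.631 CPM (log2 change 0.20 ± 0.0742 SE, adjusted p = 0.0245 in edgeR). That call was lost in 7 of 16 alternatives, namely DESeq2 (adjusted p = 0.0619), no filter (0.272), the test against 1.2-fold (0.719) and the tests without WT replicate 1 or 2 or siSRSF2 replicate 1 or 2 (adjusted p between 0.0542 and 0.141). GUSB also has 11 pseudogene entries in the table, of which GUSBP1 had as many counts as GUSB itself, so the division of reads among them is uncertain. TPP1, tripeptidyl peptidase 1, rose from 5.90 ± 0.327 to 8.33 ± 0.277 CPM (log2 change 0.50). NPC2, which hands cholesterol to the membrane exporter, was not called, at 5.16 ± 0.562 and 5.09 ± 0.907 CPM (log2 change -0.0050, SE 0.138).

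**Figure D3:**
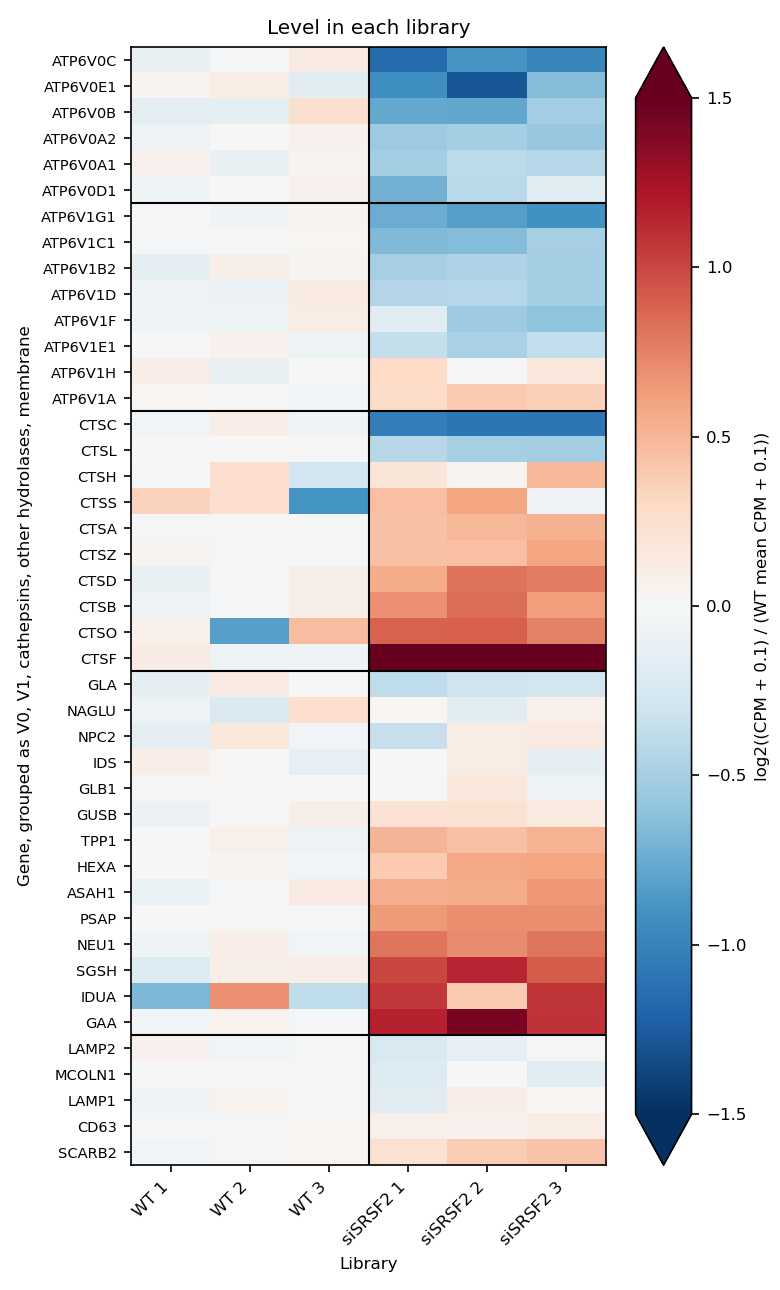
Level of each gene (rows, grouped by role) in each of the 6 libraries (columns), as the log2 ratio to the WT mean after adding 0.1 CPM to both, with red above and blue below WT and colours ending at 1.5. The 3 siSRSF2 libraries share a blue block of V-ATPase genes and a red block of hydrolases; the mixed colours of CTSS, CTSO and IDUA in WT are those of genes with few counts.

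Of the 5 membrane proteins, 1 was called, as higher (20%, beside 30.1% of all genes). Their median log2 change was -0.0076. SCARB2, the receptor that carries glucocerebrosidase to the lysosome, was at 49.8, 52.0 and 52.3 CPM in the WT libraries and 60.0, 67.0 and 69.1 CPM in the siSRSF2 libraries. All siSRSF2 libraries exceeded WT, by 1.27-fold (log2 change 0.35 ± 0.0555 SE, adjusted p = 4.97e-06 in edgeR). LAMP1, the most used marker of the organelle, was at 32.3, 34.9 and 34.0 CPM in the WT libraries and 29.9, 36.0 and 34.3 CPM in the siSRSF2 libraries. The groups overlapped (log2 change -0.0076 ± 0.0661 SE, adjusted p = 0.934 in edgeR). LAMP2, its relative with a role in chaperone-mediated autophagy, was at 18.5 ± 0.766 and 16.99 ± 1.18 CPM (log2 change -0.12 ± 0.0759 SE, adjusted p = 0.170 in edgeR), and it was called lower when no filter was used (adjusted p = 0.0402). The count ratio of LAMP1 to LAMP2 was 1.82 ± 0.143 in WT and 1.97 ± 0.137 in siSRSF2 (SD, n = 3 each), about 1 SD apart. CD63, a tetraspanin of late endosomes and exosomes, was at 103, 103 and 106 CPM in the WT libraries and 110.3, 109 and 113 CPM in the siSRSF2 libraries. Its groups did not overlap, by a margin of a few CPM, and the test did not pass (log2 change 0.088 ± 0.0451 SE, adjusted p = 0.0990 in edgeR), while it was called higher with library totals (adjusted p = 1.89e-04) and among genes of at least 1 CPM (0.00759). MCOLN1, the calcium channel TRPML1, was at 6.06 ± 0.0823 and 5.57 ± 0.427 CPM and was not called either (log2 change -0.12 ± 0.117 SE, adjusted p = 0.407 in edgeR).

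Other genes of the lysosome, listed by function, were read in the same fit. Of 40 further enzymes and cofactors tested, 20 were higher and 6 lower (50% and 15%, beside 30.1% and 29.0% of all genes), with a median log2 change of 0.31. HYAL1, a hyaluronidase, was at 3.57, 4.33 and 4.30 CPM in the WT libraries and 19.9, 19.5 and 19.3 CPM in the siSRSF2 libraries, a 4.81-fold rise (log2 change 2.27 ± 0.0969 SE, adjusted p = 9.83e-17 in edgeR). The mannosidases MAN2B1 (from 6.09 ± 0.437 to 14.5 ± 0.913 CPM) and MANBA (from 5.71 ± 0.120 to 13.5 ± 0.968 CPM) also rose. Of 28 further lysosomal membrane proteins, 10 were higher and 8 lower (35.7% and 28.6%, near the 30.1% and 29.0% of all genes). With library totals these counts were 13 and 5. The two-pore channel gene TPCN2 (log2 change 1.26) and SIDT2 (1.16) rose, and the transporter gene MFSD1 (-0.83) and OSTM1 (-0.83), the partner of the chloride transporter CLC-7, fell.

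Genes that sort new enzymes to the lysosome also went in both directions. Of 23 tested, 10 fell and 6 rose (43.5% and 26.1%, beside 29.0% and 30.1% of all genes). Their median log2 change was -0.12, and 8 went each way under library totals. M6PR, the small mannose 6-phosphate receptor, was at 95.0, 103 and 97.3 CPM in the WT libraries and 49.2, 47.1 and 55.6 CPM in the siSRSF2 libraries, a 1.95-fold fall (log2 change -0.96 ± 0.0572 SE, adjusted p = 1.24e-13 in edgeR). The other mannose 6-phosphate receptor gene, IGF2R, chosen after its values were seen, was more abundant and rose slightly. It went from 222 ± 0.967 to 249 ± 10.6 CPM (log2 change 0.16 ± 0.0443 SE, adjusted p = 0.00248 in edgeR). CLN6, which helps enzymes leave the endoplasmic reticulum, fell from 43.3 ± 1.08 to 17.8 ± 0.660 CPM (log2 change -1.28), the adaptor subunit gene AP1M2 from 15.1 ± 0.137 to 7.56 ± 0.355 CPM (-1.003) and the adaptor gene GGA3 from 33.6 ± 1.17 to 21.2 ± 1.70 CPM (-0.66). Genes of lysosome fusion and positioning were 11 higher and 10 lower of 27 (40.7% and 37.0%, beside 30.1% and 29.0% of all genes). With library totals these counts were 15 and 8. There the SNARE gene VTI1B (log2 change -0.62) and VPS33A (-0.67) fell, while VPS39, like VPS33A a subunit of the tethering complex HOPS, rose (0.54). None of 3 tested cystatin genes, inhibitors of cysteine cathepsins, was called by edgeR, 1 had an unadjusted p under 0.05, and DESeq2 and limma voom called 0; under library totals 1 was called higher.

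Of the MiT/TFE factors themselves, TFE3 rose and TFEB fell by small amounts. TFE3 was at 19.8, 21.1 and 22.8 CPM in the WT libraries and 27.2, 27.3 and 27.1 CPM in the siSRSF2 libraries, without overlap (log2 change 0.36 ± 0.0677 SE, adjusted p = 5.59e-05 in edgeR), and was not called against 1.2-fold (adjusted p = 0.0611). TFEB was at 8.96, 7.64 and 8.51 CPM in the WT libraries and 6.88, 6.51 and 7.62 CPM in the siSRSF2 libraries, a marginal fall (log2 change -0.26 ± 0.108 SE, adjusted p = 0.0427 in edgeR) that was smaller and no longer called under library totals (log2 change -0.13, adjusted p = 0.337). The call on TFEB was also lost with DESeq2 (adjusted p = 0.0605), among genes of at least 1 CPM (0.0906), against 1.2-fold (0.411), with the replicate number as a block (0.0514) and without WT replicate 1 or 3 or siSRSF2 replicate 1 or 2 (adjusted p between 0.0931 and 0.156). MITF was not called, at 37.6 ± 1.61 and 39.3 ± 1.47 CPM (log2 change 0.063 ± 0.0579 SE, adjusted p = 0.368 in edgeR), except under library totals (adjusted p = 0.00798), and TFEC was under the filter, with counts of 4, 2 and 0 in WT and 0, 0 and 0 in siSRSF2. A further list held these factors, the Rag and Ragulator proteins that hold mTORC1 at the lysosome, and FLCN, FNIP1, FNIP2 and ZKSCAN3. In this list 15 genes were tested. Of these, 5 were higher and 6 lower (33.3% and 40%, beside 30.1% and 29.0% of all genes). With library totals these counts were 6 and 3. RRAGC rose from 7.26 ± 0.210 to 14.3 ± 0.116 CPM (log2 change 0.97) and ZKSCAN3, a zinc-finger gene described as a repressor of lysosomal genes, rose from 4.01 ± 0.0783 to 7.16 ± 0.0523 CPM (0.83), whereas LAMTOR1, the Ragulator anchor, fell from 17.9 ± 0.798 to 11.7 ± 0.721 CPM (-0.61). RNA levels do not show where these factors were in the cell.

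**Figure D4:**
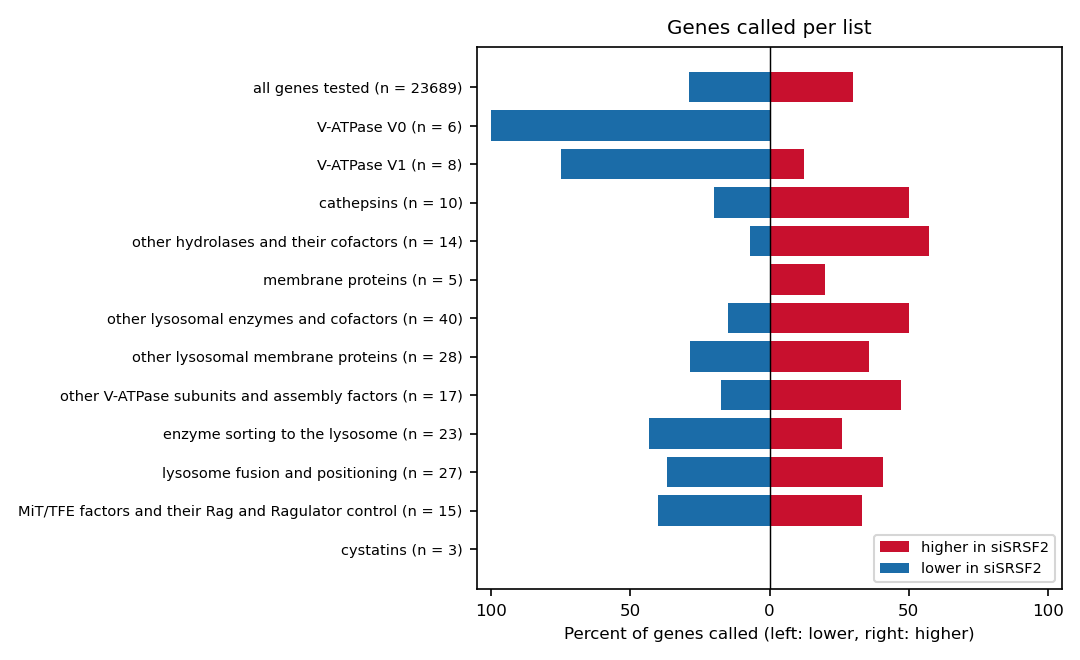
Percent of tested genes called lower (blue, to the left) or higher (red, to the right) in siSRSF2 in each list, with all 23689 genes tested at the top and the number tested in brackets. The V0 and V1 bars point left, the bars of enzyme genes point mostly right, and the cystatin row is empty because none of 3 was called.

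Among all genes tested, the 43 lay inside the cloud of change against level, with CTSF farthest above 0 and CTSC farthest below it. The ends of their order by level held the same genes: ATP6V1F, PSAP and CTSL were the 3 highest per kb in both groups, and CTSO, CTSS and IDUA the 3 lowest. CTSF moved from rank 38 to 23 of 43 in level per kb, and ATP6V0B from 28 to 37. Merged exons include parts that a given transcript may lack, so levels per kb are approximate.

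**Figure D5:**
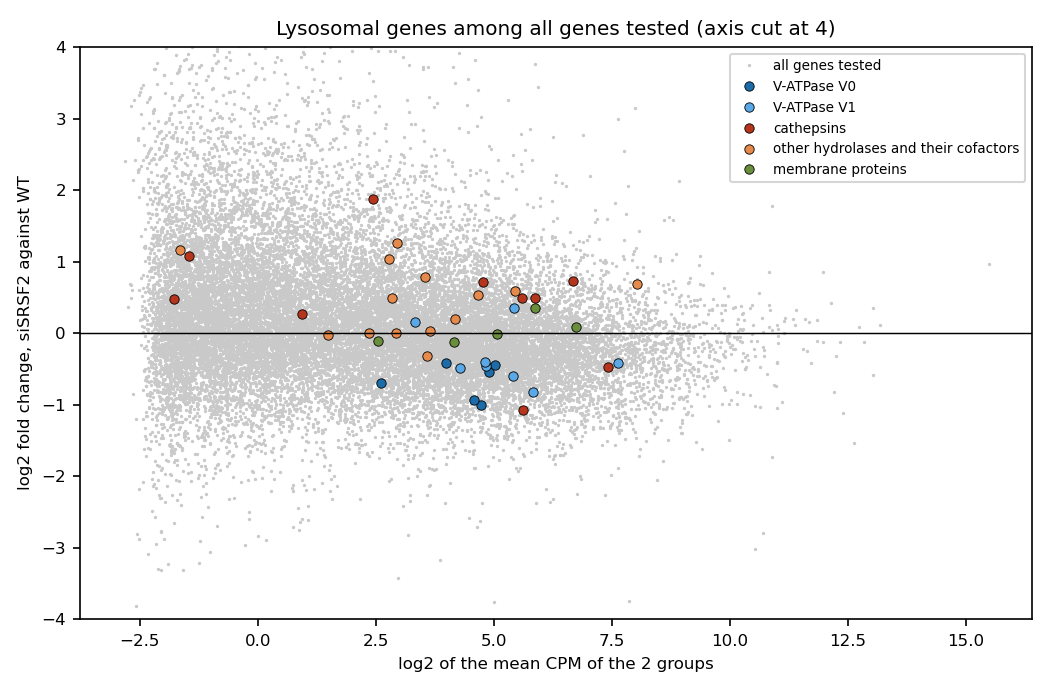
Log2 fold change (vertical axis) against the log2 mean CPM (horizontal axis) of all genes tested in grey and of the 43 genes in colour by role; 93 genes lie beyond the vertical limits of 4. The V-ATPase points sit mostly below 0 and the hydrolases mostly above it, inside the grey cloud.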

How the data were processed

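The deposited table gives whole read counts, not normalized by the authors, for 6 libraries; a SMARTER mRNA-Seq kit and total RNA are named in the labels' protocols. HISAT2 2.0.5, featureCounts 1.5.0-p3 and the mouse build mm10 are named per the submitters' processing notes, but the table holds human genes, and 40 of the 43 genes lie at their GENCODE 29 (GRCh38) position. The sources used here do not say how strand and reads over several genes were handled; 20 of the 43 genes share exon positions with another entry.

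The fit used edgeR 4.0.16 under R 4.3.3: filterByExpr (minimum count 10, 23689 genes kept), TMM, robust quasi-likelihood F test on group, Benjamini-Hochberg over all genes tested, threshold 0.05. CPM uses TMM-scaled library sizes; a count of 3 was 0.0630 to 0.110 CPM (counting error only). SEs derive from the fold change and its F. Replicate pairs differed by more than the sampling noise of independent counts (chi-square per gene 3.83 to 8.75). Low counts were often even, as all those of CTSS and PTPRC were, while CTSO and IDUA also had odd ones. Whether both reads of a pair were counted was not tested. If they were, sampling noise is larger than assumed here, and low counts stand for fewer molecules. The test was checked on simulated data in which far fewer genes changed than were called here, in equal numbers up and down. That check does not cover changes as widespread as these. Alternatives were DESeq2 1.42.0, limma 3.58.1 (voom), RLE factors, library totals, no filter, a mean of at least 1 CPM, no mitochondrial genes, a non-robust fit, a replicate block, each library left out, and a test against 1.2-fold.

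The members and lists were chosen with earlier results of these data known. All members could be named, with full statistics for the 4 of smallest p per role and for others chosen after their values were seen; from related lists, up to 4 called genes by smallest p, and the MiT/TFE factors; some that the rule names are not reported here. Of 164 related genes, 163 matched by name and 1 through an earlier symbol.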

Additional observations from a re-analysis of the deposited data

How the results depend on the processing

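Over 16 alternatives, 26 of 30 called members (14 higher, 12 lower) stayed called in the same direction in every one; the exceptions were GLA, GUSB, ATP6V0D1 and ATP6V1F. Calls over all genes ran from 12966 to 13841 with 1 library left out (13991 with all), members called higher from 14 to 16 and lower from 14 to 15. V-ATPase genes called lower ranged from 10 to 12 of 14 and hydrolases called higher from 12 to 15 of 24 over all alternatives. Scaling by library totals raised the median log2 fold change of all genes by 0.13 (members: 19 higher, 13 lower). Genes near 0 that were not called changed sign. Those values were: with limma voom, IDS (0.00055) and NPC2 (0.0013); with library totals, IDS (0.13), NAGLU (0.104), NPC2 (0.13), LAMP1 (0.12), LAMP2 (0.0077) and MCOLN1 (0.013). With no filter they were GLB1 (-0.044) and MITF (-0.012). With a mean of at least 1 CPM they were IDS (0.049), NAGLU (0.024), NPC2 (0.046) and LAMP1 (0.044). With 1 library left out, log2 fold changes ran, for GLB1 from -0.047 to 0.079, IDS from -0.077 to 0.056, NAGLU from -0.14 to 0.12, NPC2 from -0.086 to 0.13 and LAMP1 from -0.070 to 0.069. None of these sign changes passed the test, and the cause was not tested. Same-numbered WT and siSRSF2 libraries did not deviate together (correlations 0.013, -0.047 and -0.046), and not every library correlated best with its own number; with the replicate block, 13697 genes, 15 members as higher and 14 as lower were called, ATP6V1F being the member lost. Depth limits CTSO, CTSS and IDUA most.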

Other observations

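The summed V-ATPase level can be set against the summed hydrolase level (cathepsins and other hydrolases, 24 genes) within each library, a ratio free of scaling between libraries and chosen after the values were seen. It was 0.813, 0.787 and 0.846 in WT and 0.517, 0.455 and 0.467 in siSRSF2. Without ATP6V1F, whose reads may be shared with KCP, it was 0.532 ± 0.0103 in WT and 0.308 ± 0.00740 in siSRSF2 (SD, n = 3 each). Across the 43 genes, the log2 fold change fell with the WT level per kb (Pearson's r -0.49, Spearman's rho -0.44, n = 43 genes that share the same 6 libraries, a description only, and the WT libraries enter both measures), and it had little relation to merged exon length (r 0.13).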
